A study of Mus musculus with 3 samples.

Results

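Natural killer receptors let lymphocytes read the surface of other cells, and a part of the CD8+ T cells carries them too. The genes described here are 8 receptor and adaptor genes, Klrc1, Klrd1, Klra9, Ncr1, Cd160, Slamf7, Fcgr3 and Fcer1g, out of 10191 genes with a value. They were picked by gene symbol, each from a probe set that the platform annotation gives a single symbol, and each of the 8 rests on 1 probe set. Expression was measured in 3 CD8+ T cell populations with 1 Affymetrix array each: CXCR3+ innate, CXCR3- innate and naive cells. All 3 came from spleen and lymph nodes of naive, that is unchallenged, C57BL/6 mice with a CXCR3-GFP reporter (called CIBER mice in the extraction protocol), in which green fluorescent protein marks cells that express the chemokine receptor CXCR3. So the naive cells carry the reporter as well, and no group is free of it. Cells were stained for CD44, CD62L and CD8 and sorted, and RNA for the array was drawn from about 3 to 5 mice. Innate is the submitters' term for the CD8+ T cells set apart from naive ones. The ages of the mice, the gates and the number of mice behind each single array are not given in the sources used here.

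The genes span C-type lectin-like receptors and immunoglobulin-like receptors. NKG2A, encoded by Klrc1, pairs with CD94, encoded by Klrd1, and the pair binds the nonclassical class I molecule Qa-1 and passes an inhibitory signal. Klra9 encodes Ly49I, an inhibitory receptor for classical class I molecules. Slamf7 encodes a SLAM family receptor that binds itself on a neighbouring cell, and Cd160 encodes a receptor for HVEM and class I molecules. Ncr1 encodes the activating receptor NKp46, and Fcgr3 an Fc receptor for IgG. Both signal through the adaptor chain encoded by Fcer1g.

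With 1 array per population there is no spread between replicates, so no test, error or p-value stands behind any difference, and higher or lower refers to these 3 arrays only. Values are log2 expression values made with RMA by the authors, and a difference of 1 is 2-fold. A gene was counted by a size rule, which asks for a difference of at least 1 and for the higher of both values to reach the median of its array over all genes (7.65 in naive and 7.63 in each of the innate populations). Each row of the deposited table reaches at least 7.00002 on some array. Klra9 and Fcer1g reached 7 only in CXCR3+ innate cells and the other 6 genes on all 3 arrays. Those 2 genes are therefore in the table through the array where they are highest, which limits what their differences show, and no summary over the 8 genes is used as support below. In bulk RNA, fewer cells that carry a receptor and less RNA per cell cannot be told apart.

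The RefSeq promoter windows of Klrc1 and Slamf7 are shown because these were the 2 genes of the 8 that passed the size rule against naive cells. Each window holds 250 bases before and 50 bases from an annotated transcript start, printed 5′ to 3′ on the strand of the gene, and capitals mark the only motif match. The Klrc1 window is chr6:129678924-129679223 and the Slamf7 window chr1:171648950-171649249, both on the minus strand of GRCm38.p6.
Klrc1: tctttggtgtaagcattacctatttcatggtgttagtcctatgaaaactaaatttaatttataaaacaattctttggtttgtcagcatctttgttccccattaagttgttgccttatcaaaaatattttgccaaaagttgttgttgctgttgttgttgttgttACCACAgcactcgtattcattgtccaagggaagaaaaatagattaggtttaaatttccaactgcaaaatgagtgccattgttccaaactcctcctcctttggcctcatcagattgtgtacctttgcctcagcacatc
Slamf7: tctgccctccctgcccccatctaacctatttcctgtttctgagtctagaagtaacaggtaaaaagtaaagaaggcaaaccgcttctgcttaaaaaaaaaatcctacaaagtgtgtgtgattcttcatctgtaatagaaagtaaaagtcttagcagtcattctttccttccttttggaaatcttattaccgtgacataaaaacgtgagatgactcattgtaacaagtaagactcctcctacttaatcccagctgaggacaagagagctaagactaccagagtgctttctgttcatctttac
The motifs searched on both strands were the T-box core GGTGTGA, the Runx core TGTGGT and the gamma-activated sequence TTCNNNGAA. The Klrc1 window held a Runx core on the reverse strand, from 87 to 82 bases before the start, and no T-box core or gamma-activated sequence. The Slamf7 window held none of the 3. Among all 32851 RefSeq windows of this length, 16.8% held a Runx core, 3.98% a T-box core and 8.3% a gamma-activated sequence. The RefSeq gene extends further upstream of the start shown, by 3879 bases for Klrc1 and by 4038 bases for Slamf7. The letters describe 1 start of each gene and do not bear on any factor's binding.

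Among the inhibitory receptors, Klrc1 separated the populations most. Klrc1 read 7.12 in naive, 7.69 in CXCR3- innate and 9.03 in CXCR3+ innate cells. The CXCR3+ array stood well above the other 2, and the CXCR3- array lay nearer to the naive one. The difference from naive cells was 1.91, or 3.75-fold, in CXCR3+ innate cells and 0.57, or 1.48-fold, in CXCR3- innate cells. These ranked Klrc1 at place 3 and place 13 from the top among 10191 genes. Between the innate populations Klrc1 differed by 1.34, or 2.53-fold, at place 5. Klrc1 passed the size rule in CXCR3+ innate against naive and in CXCR3+ against CXCR3- innate cells. The naive values of Klrc1 and Slamf7 lay below the median of the naive array, where little signal limits how far a lower level can be read.

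Klrd1, whose product is the partner of NKG2A, did not share this pattern. It read 9.79 in naive, 9.29 in CXCR3- innate and 9.65 in CXCR3+ innate cells, so that the naive array was the highest. The difference was -0.14 in CXCR3+ innate minus naive and -0.50 in CXCR3- innate minus naive, and the CXCR3+ innate value was 0.36 above the CXCR3- innate one. A value 0.5 or more below naive was found in 3.08% of all genes in the CXCR3- innate array, against 0.255% of genes that far above, so that the lower reading of Klrd1 there was 1 of 314. The Klrd1 difference in CXCR3- innate cells was -0.33 with quantile normalization, -0.43 with cyclic loess and -0.47 after centring on the median. With an offset of 16 it was -0.49, so under none of these did Klrd1 lie 0.5 below naive. NKG2A and CD94 form a heterodimer, but their genes read differently here: on the same 2 arrays, CXCR3+ innate and naive, Klrc1 differed by 1.91 and Klrd1 by -0.14. That Klrd1 difference was -0.04 after quantile normalization, which is close to 0.

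Klra9 read 6.05 in naive, 6.28 in CXCR3- innate and 7.09 in CXCR3+ innate cells. The order of the arrays was that of Klrc1, and the naive value was the lowest of all 12417 probe sets on the naive array. The difference of 1.04 in CXCR3+ innate minus naive was 2.06-fold, but its higher value stayed below the array median, so it did not pass the size rule. CXCR3- innate cells differed from naive by 0.23 and from CXCR3+ innate cells by 0.81 on the log2 scale, with the CXCR3+ array higher. After quantile normalization the first of these was 0.52 and the second 0.65, and with 16 added to each linear value as an offset the difference of CXCR3+ innate cells from naive was 0.89, short of 2-fold. The Ly49 genes are close in sequence, and so are Klrc1, Klrc2 and Klrc3. Signal from such relatives in the probe sets of Klra9 and Klrc1 was not tested.

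**Figure D1:**
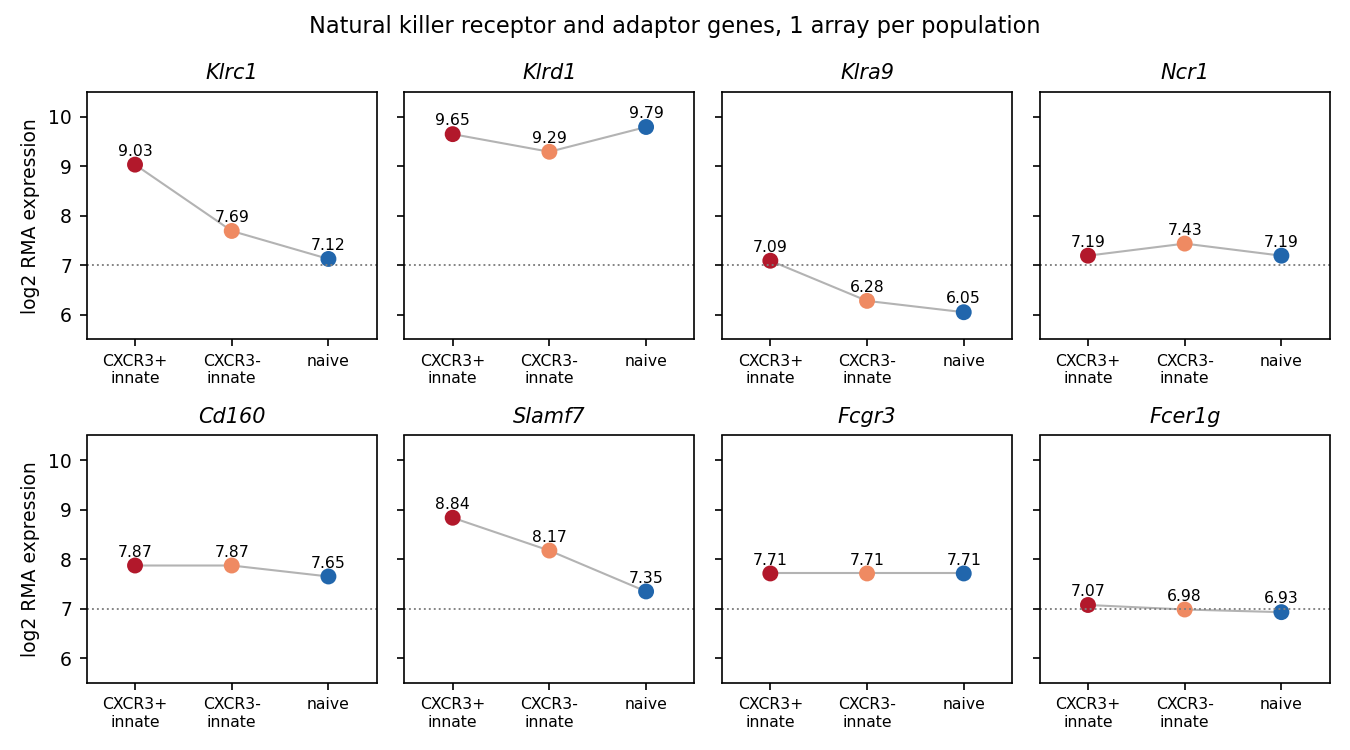
Log2 RMA expression (vertical axis) of the 8 genes on the 3 arrays, with 1 point for each population's single array, the value printed above it and no error bar because no population was replicated. Klrc1, Slamf7 and Klra9 step down from CXCR3+ innate through CXCR3- innate to naive cells, Klrd1 is highest in naive cells, Fcgr3 has 1 value on all arrays, and the dotted line at 7 marks the level that each row of the table reaches on at least 1 array.

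Slamf7, among the immunoglobulin-like receptors, was graded across the populations. It read 7.35 in naive, 8.17 in CXCR3- innate and 8.84 in CXCR3+ innate cells. The CXCR3- array lay near the middle, at 55.5% of the log2 difference between CXCR3+ innate and naive cells, where the same share was 29.7% for Klrc1. Quantile normalization left these shares at 57.4% and 30.1%. For Klra9, with CXCR3- innate and naive values below 7, the share was 22.0% as deposited and 44.5% after quantile normalization, so its place is not settled. The shares use the same naive array. Slamf7 was 2.81-fold above its naive level in the CXCR3+ innate array and passed the size rule there. It was 1.77-fold above that level in the CXCR3- innate array and 1.58-fold higher in CXCR3+ than in CXCR3- innate cells, and passed in neither. In both comparisons with naive cells it ranked at place 4 from the top.

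Cd160 showed a small step that set the innate arrays apart from the naive one. It read 7.65 in naive, 7.87 in CXCR3- innate and 7.87 in CXCR3+ innate cells. The values of both innate arrays were equal to the last of the 6 deposited decimals, and each lay 0.22 above naive. Over all genes the 95th percentile of the difference from naive was 0.19 for the CXCR3+ array and 0.18 for the CXCR3- array, and the 99th was 0.45 and 0.35, so 0.22 lay between these percentiles in both.

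The activating receptor, Fc receptor and adaptor genes differed by 0.24 or less across the populations. Ncr1 read 7.19 in naive, 7.43 in CXCR3- innate and 7.19 in CXCR3+ innate cells, with the CXCR3- array 0.24 above the others, which were equal. Fcgr3 read 7.71 on each of the 3 arrays. Fcer1g read 6.93 in naive, 6.98 in CXCR3- innate and 7.07 in CXCR3+ innate cells, a difference of 0.14 from the highest to the lowest. Ncr1, Cd160 and Fcgr3 thus had an equal value on at least 1 pair of arrays. Such equality was frequent in this table: 45.0% of genes had equal values in the CXCR3+ innate and naive arrays, 42.1% in the CXCR3- innate and naive arrays and 49.0% in both innate arrays. A difference of 0 therefore does not show equal expression, and under the scalings tried these zeros took values of up to 0.0303.

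Counted together, 2 of the 8 genes were above naive cells in the CXCR3+ innate array by the size rule, where 0.137% of all genes were, and 0 were lower, where 0.0981% of all genes were. In CXCR3- innate minus naive 0 of 8 passed in either direction, where 0.0196% of all genes were higher and 0.226% lower. In CXCR3+ minus CXCR3- innate 1 of 8 was higher, against 0.147% of all genes, and 0 were lower, against 0.00981%. By a looser rule of at least 0.5 with no condition on the level, 3 of 8 genes were above naive cells in the CXCR3+ innate array (0.834% of all genes; 0 of 8 were that far below, against 1.4%), 2 of 8 were above and 1 below naive in the CXCR3- innate array (0.255% and 3.08%), and 3 of 8 were higher in CXCR3+ than in CXCR3- innate cells (1.6% of all genes; 0 of 8 were that far lower, against 0.334%). After quantile normalization 3 of 8 were that far above naive in the CXCR3- innate array, Klra9 being added, and 0 below, since Klrd1 no longer reached 0.5. It did not with cyclic loess, centring or the offset either. The median difference of the 8 genes was 0.18, 0.23 and 0.22 in these 3 comparisons, and that of all genes was 0.0 in each. Klra9 is 1 of the 3 genes counted by the looser rule in both comparisons that hold the CXCR3+ innate array. It is in the table only through that array, so its direction there gives no support. Klra9 and Fcer1g, which is in the table in the same way, also enter the medians. The 8 genes were chosen with such values known, and the comparisons share arrays, so these counts describe the genes and are not independent of each other.

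**Figure D2:**
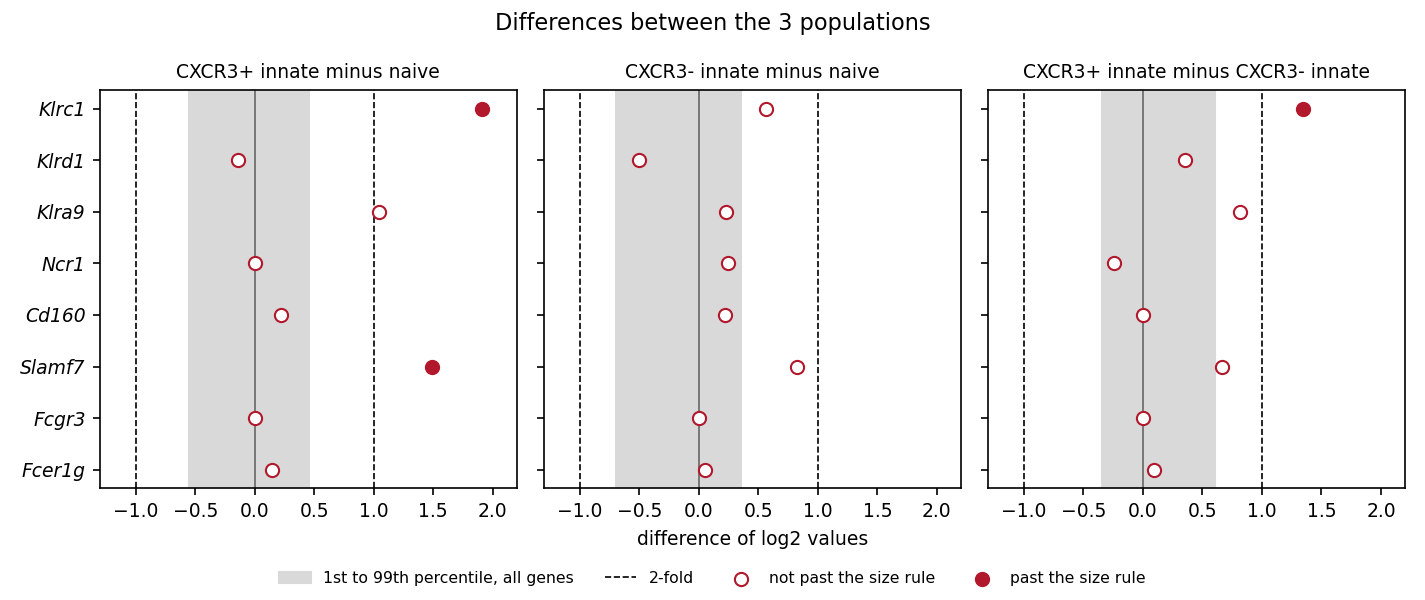
Difference of log2 values (horizontal axis) for each of the 8 genes in the 3 comparisons, with filled points for genes past the size rule, grey bands for the 1st to 99th percentile of all 10191 genes and dashed lines at 2-fold. Klrc1 and Slamf7 lie to the right of the band in all 3 panels, Klra9 lies to the right of it in the panels that hold the CXCR3+ innate array, and the other 5 genes lie inside it in each.

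In the values as deposited, Klra9 was the only related lectin-like or SLAM family receptor gene to rise in the order of Klrc1 and Slamf7. Klra9 is in the table only through the CXCR3+ innate array. In the natural killer gene complex on chromosome 6, RefSeq lists 20 Klr genes from Klre1 to Klra2, and Klrd1, Klrc1 and Klra9 were the 3 with a value. Klrk1, which encodes the activating receptor NKG2D, and Klrc2, which encodes the activating partner of CD94, have no value here. Of 38 other listed genes of killer cell lectin-like receptors and their Clec2 relatives, 4 were measured, 0 passed the size rule and Klrg2 and Clec2i were equal on all arrays. Over all genes, at most 0.226% passed that rule in any comparison and direction, so 0 in a short list says little. Klrb1 differed from naive by -0.17 in CXCR3+ innate and by -0.0142 in CXCR3- innate cells, the latter above 0 once arrays were centred on their medians or quantile normalized. Clec2d, which encodes a ligand of NKR-P1 receptors, differed by -0.06 in CXCR3+ innate cells (above 0 after quantile normalization) and by -0.30 in CXCR3- innate cells.

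The SLAM cluster on chromosome 1 holds 7 genes, of which Slamf7 and 5 neighbours were measured. In the values as deposited, these neighbours read at or below naive in both innate populations. So did most genes, 79.3% in CXCR3+ innate and 78.4% in CXCR3- innate cells, and the shared direction does not set the neighbours apart. Slamf1 read 7.76 in naive, 7.57 in CXCR3- innate and 7.14 in CXCR3+ innate cells, a step in the opposite direction to Slamf7, with differences from naive of -0.62 in CXCR3+ innate and -0.19 in CXCR3- innate cells. Further pairs of differences from naive follow this order, CXCR3+ innate before CXCR3- innate. Slamf6 was likewise lower, by -0.49 and -0.15 as the mean of its 2 probe sets. Those probe sets disagreed: the brighter read 9.57 in naive, 9.27 in CXCR3- innate and 8.59 in CXCR3+ innate cells, a difference of -0.98 in CXCR3+ innate minus naive, and the other read 7.15 on each array. Cd84 differed from naive by -0.25 and -0.11, the second value being above 0 after quantile normalization. Cd48, which encodes the ligand of the receptor 2B4, was equal in CXCR3+ innate and naive cells and differed by -0.20 in CXCR3- innate cells. Ly9 differed by 0.01 at most between arrays, and by up to 0.14 after quantile normalization. Of the 6 listed SLAM family and adaptor genes with a value besides Slamf7, 0 passed the size rule. That rule was passed by at most 0.226% of all genes in any comparison and direction. Sh2d1a, which encodes the adaptor SAP, was equal on all arrays. The median difference of the 6 genes was -0.13 in CXCR3+ innate minus naive and -0.13 in CXCR3- innate minus naive, beside 0.0 over all genes.

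Adaptor chains other than Fcer1g were compared next. Hcst, which encodes DAP10, the adaptor of NKG2D, read 7.69 in naive, 7.27 in CXCR3- innate and 8.13 in CXCR3+ innate cells. The innate arrays thus lay on opposite sides of naive, at 0.44 for CXCR3+ and -0.42 for CXCR3-, and differed from each other by 0.87. The T cell receptor chain Cd3g differed from naive by -0.38 in CXCR3+ innate and by -0.93 in CXCR3- innate cells, and Cd3e by -0.36 and -0.30. Cd3d differed by 0.0053 and -0.52. None of the 4 measured among 8 listed adaptor genes passed the size rule, as against at most 0.226% of all genes in any comparison and direction. By the looser rule of at least 0.5, 3 of the 4 were higher in CXCR3+ than CXCR3- innate cells, against 1.6% of all genes. In CXCR3- innate minus naive 2 of the 4 were that far below, against 3.08%. Both counts use the CXCR3- array, and Cd3d, counted in both, fell short after quantile normalization, at 0.49 and -0.41. Tyrobp, which encodes DAP12, has no value here.

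Downstream of these receptors, 0 of 17 measured kinase, phosphatase and linker genes among 22 listed passed the size rule in any comparison. This is near the share of all genes, which was at most 0.226% in any comparison and direction. Lat, the membrane linker of T cell receptor signalling, differed from naive by -0.56 in CXCR3+ innate and by -0.48 in CXCR3- innate cells. Vav1, an exchange factor, differed by -0.27 and -0.63, Pik3cd by -0.39 and -0.52 and the inhibitory kinase gene Csk by -0.09 and -0.46. The list median was -0.02 for CXCR3+ innate and -0.18 for CXCR3- innate minus naive, beside 0.0 over all genes. The second median is the value of the listed gene Lcp2, which was 0.06 after quantile normalization. Cbl and Pik3r1 also moved from below to above 0 with that scaling, to 0.01 and 0.14. The direction of the CXCR3- median is therefore not settled.

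**Figure D3:**
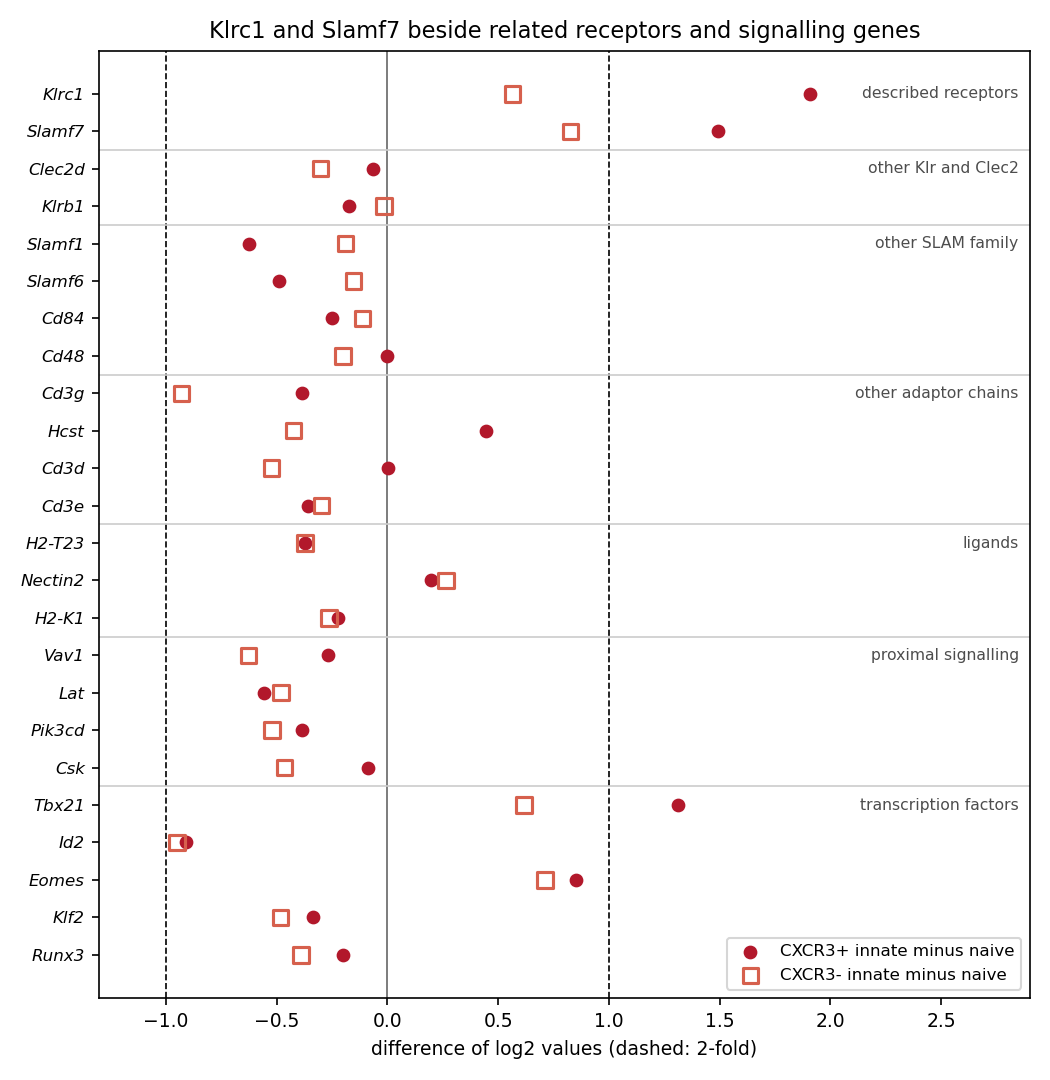
Difference of log2 values from naive cells (horizontal axis) for Klrc1 and Slamf7 at the top and for genes of related lists below, with filled circles for CXCR3+ innate and open squares for CXCR3- innate minus naive and dashed lines at 2-fold. Klrc1, Slamf7 and Tbx21 lie past 2-fold in CXCR3+ innate cells, while Slamf1 and Slamf6 lie to the left of 0 in both comparisons.

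The genes with the pattern most like Slamf7 and Klrc1 were sought over the 3 arrays, as the smallest Euclidean distance between log2 values centred on each gene's own mean. Over 3 arrays such likeness is a description only. The nearest gene to Slamf7 was Tbx21, which encodes the transcription factor T-bet, at a distance of 0.16. Tbx21 read 7.37 in naive, 7.98 in CXCR3- innate and 8.68 in CXCR3+ innate cells. It was followed by the chemokine gene Xcl1 at 0.16, Plek at 0.27, the transcription factor gene Bhlhe40 at 0.27 and Cd44 at 0.31, the last of which encodes an antigen used in the sort. The genes nearest to Klrc1 lay further off: Il18rap, whose product is part of the receptor for interleukin-18, at 0.43, Xcl1 at 0.47, Slamf7 at 0.48, Ly6c2 at 0.50 and Tbx21 at 0.51. Of these, Ly6c2 had larger differences than Klrc1 in all 3 comparisons, and Il18rap, Xcl1, Slamf7 and Tbx21 had smaller ones in CXCR3+ innate minus naive.

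**Figure D4:**
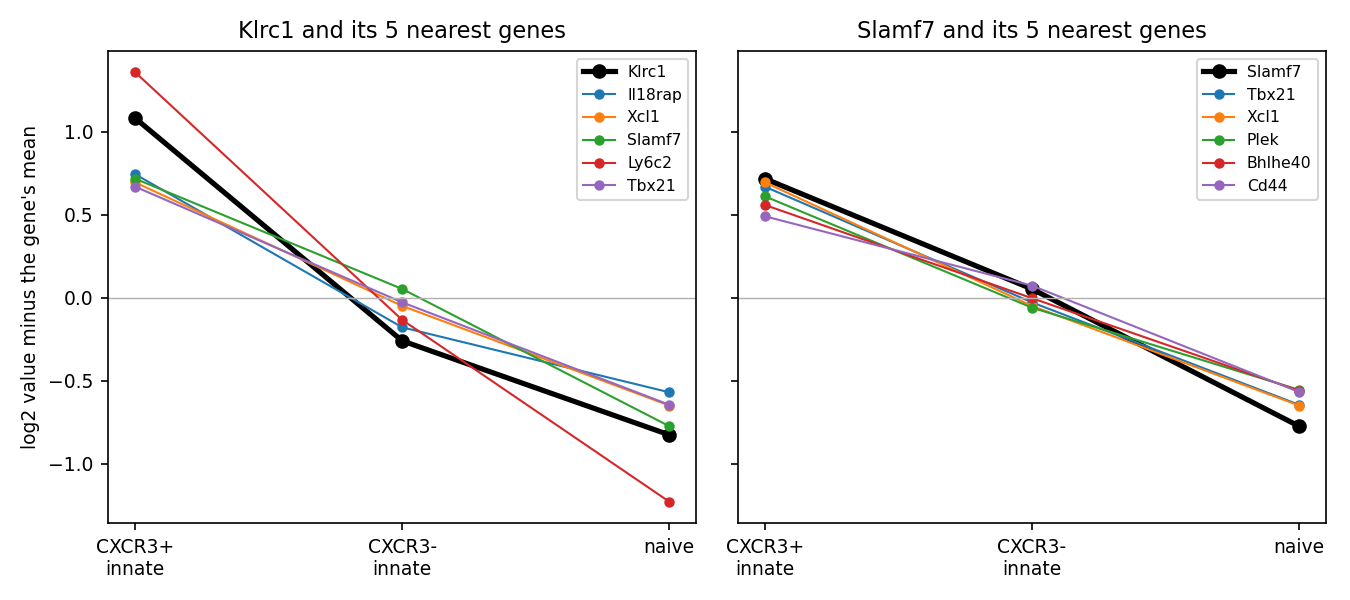
Log2 value minus the gene's own mean over the 3 arrays (vertical axis) for Klrc1 and Slamf7 (black) and for the 5 genes nearest to each (colours), with 1 array per population. The genes around Slamf7 run close together, at distances of 0.16 to 0.31, and those around Klrc1 lie at 0.43 to 0.51. These distances reflect the size of the differences as well as their shape.

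Among listed transcription factors that act in natural killer and memory-phenotype CD8+ T cells, 11 of 18 were measured and Tbx21 was the 1 that passed the size rule, at 1.31 in CXCR3+ innate minus naive. Of all genes, 0.137% were higher by that rule in this comparison. Eomes, which encodes a T-box factor related to T-bet, differed from naive by 0.85 and 0.71 in CXCR3+ and CXCR3- innate cells. Id2 differed by -0.91 and -0.95, Klf2 by -0.33 and -0.48 and Runx3 by -0.20 and -0.39. The list median was -0.06 and 0.00 in these comparisons.

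The labels were set beside marker genes. CD8+ T cell markers were high on each array, with 9 of 10 measured and values between 8.31 and 11.81, and Cd8a read 10.43 in naive, 9.77 in CXCR3- innate and 10.14 in CXCR3+ innate cells. In that order, Cd44 read 7.24, 7.88 and 8.30 and Cxcr3 read 7.57, 7.82 and 7.97. Between the innate arrays Cxcr3 differed by 0.15, or 1.11-fold, where the 95th percentile over all genes was 0.29. The CXCR3- array lay 0.25 above naive. Cxcr3 RNA thus set the innate arrays little apart, which limits how far their labels can be checked here. Of 11 listed natural killer cell markers only Ncr1, Itgam and S1pr5 had a value, between 7.18 and 7.71. Their summed linear signal was 478, 528 and 501 in naive, CXCR3- innate and CXCR3+ innate cells, so it was highest in CXCR3- innate cells. Klrb1c, Klra8, Klre1, Klri2, Itga2, Tyrobp, Gzma and Klrk1 had none. Of 15 myeloid markers, which bear on Fcgr3 and Fcer1g, 6 had a value, with summed signals of 1091, 1148 and 1070.1. The measured B cell, CD4+ T cell, and gamma-delta or natural killer T cell markers numbered 1 of 12, 2 of 4 and 3 of 7. Among the last, Cd163l1, a gamma-delta T cell gene, read 7.69 in naive, 7.72 in CXCR3- innate and 8.14 in CXCR3+ innate cells, the same order as Klrc1, with a difference from naive of 0.45 in CXCR3+ innate cells. Sox13 and Zbtb16 differed from naive by 0.08 at most, and the summed signal of the 3 was 625, 649 and 713 in that order. Trdc, Trdv4, Tcrg-C1 and Tcrg-C2 had no value. H2-Ab1, the measured B cell marker, read 7.04, 7.21 and 7.07, and the CD4+ T cell markers Foxp3 and Ctla4 had a summed signal of 340.2, 380.3 and 308, again in that order. The part of other cells in the values of the 8 genes was not tested.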

How the data were processed

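Total RNA of each population was biotin-labelled and hybridised to 1 Affymetrix array. The authors deposited log2 values. The submitters' processing notes name RMA and Affymetrix Expression Console. Versions, the genome build and the filter on rows are not given in the sources used here. The RMA method subtracts a modelled background, brings arrays to 1 distribution and summarises probes by median polish. Of 12417 probe sets, 10576 have 1 gene symbol in the platform annotation, 1108 have several and 733 none. Only the first kind was used, and probe sets of 1 gene were averaged (273 genes), which gave 10191 genes. Differences of log2 values were taken for 3 comparisons. Named were the 8 genes, genes of related lists that passed the size rule, up to 4 others per list with the largest difference, and the 5 genes nearest in pattern to Klrc1 and to Slamf7 (predicted genes, small RNAs, histones and receptor segments left out). The members and lists were chosen with earlier results of these data known. Promoter windows are from RefSeq, build GRCm38.p6, and 7 of the 8 genes matched. Protein sequences were not analysed here. Alternatives were other filters, thresholds of 1.5-fold and 3-fold, 3 scalings, an offset of 16 and other handling of probe sets. Python 3.11.15, pandas 2.3.3, numpy 2.4.6, matplotlib 3.10.9, R 4.3.3 and limma 3.58.1 were used. The number of arrays limits the precision.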

Additional observations from a re-analysis of the deposited data

Results flagged for a closer look

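Among 37 genes named by rule, Hcst and Cd3d had innate values on opposite sides of naive. Hcst differed from naive by 0.44 in CXCR3+ innate and by -0.42 in CXCR3- innate cells. Under the 3 scalings tried (median centring, cyclic loess, quantile) the Hcst difference lay between 0.45 and 0.47 in CXCR3+ innate and between -0.42 and -0.39 in CXCR3- innate cells. Cd3d differed from naive by 0.0053 in CXCR3+ innate, a value close to 0, and by -0.52 in CXCR3- innate cells. Neither difference between the innate populations was tested, since each rests on 1 array.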

How the results depend on the processing

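No paired analysis was possible because each population has 1 array and the labels give no replicate numbers. Klrc1 passed the size rule in CXCR3+ innate minus naive under each of the 11 settings, the reported one included, with differences between 1.79 and 1.92, and Slamf7 under 10 of 11, with differences between 1.40 and 1.51. With a threshold of 3-fold, 1 gene of the 8 was higher in CXCR3+ innate minus naive and 0 in CXCR3+ minus CXCR3- innate cells. With a threshold of 1.5-fold, 1 gene, Slamf7, was higher in CXCR3- innate minus naive and 2 genes were higher in CXCR3+ minus CXCR3- innate cells. Without the filter on dim genes Klra9 passed too in CXCR3+ innate minus naive, at 1.04. These changes follow from the thresholds themselves. The other 74 values of counts and medians stayed within 1.5 times or within 0.1 of those reported. Scaling moved the median of all genes by at most 0.0302. Since each of the 8 genes has 1 probe set, the handling of several probe sets did not alter their values. Genes near 7 on an array have little signal, which limits Klra9, Fcer1g and Ncr1. It also limits the naive value of Klrc1, 7.12, from which its differences from naive were taken.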

Other observations

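Genes that encode ligands of these and related receptors showed no common direction. In the values as deposited, of 7 measured among 13 listed, 3 (Nectin2, Pvr and Cfp) were above naive in CXCR3+ innate cells, where 20.7% of all genes were, and 2 (Nectin2 and Cfp) in CXCR3- innate cells, where 21.6% of all genes were. After centring on the median Pvr was above naive there too. H2-T23, which encodes Qa-1, the ligand of NKG2A paired with CD94, read 7.91 in naive, 7.53 in CXCR3- innate and 7.53 in CXCR3+ innate cells, a difference of -0.37 from naive in each. H2-K1, a classical class I gene, read 11.30, 11.04 and 11.07 in the same order. Nectin2 differed from naive by 0.20 in CXCR3+ innate and by 0.26 in CXCR3- innate cells. Tnfrsf14, which encodes the ligand of CD160, HVEM, was equal on all 3 arrays. Pvr and Cfp differed from naive by 0.0461 at most, and 0 of the 7 passed the size rule. At most 0.226% of all genes passed it in any comparison and direction.

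Of the other Fc receptor genes, 4 of 10 were measured and 0 passed the size rule, beside at most 0.226% of all genes. Fcgrt, which encodes the neonatal Fc receptor, read 7.77 in naive, 7.92 in CXCR3- innate and 8.09 in CXCR3+ innate cells. It lay 0.32 above naive in CXCR3+ innate cells, between the 95th and 99th percentiles of all genes, 0.19 and 0.45. In CXCR3- innate cells it lay 0.16 above naive, short of the 95th percentile of 0.18. Fcgr2b differed from naive by 0.08 in both innate populations, Fcrl1 by 0.07 in CXCR3+ and 0.17 in CXCR3- innate cells, and Fcgr1 was equal on all 3 arrays.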
